A study of Mus musculus with 4 samples.

Results

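Described here are 9 genes of the fibronectin and RGD-type integrin system in sorted basal cells of mouse mammary outgrowths, out of 34615 gene rows counted in each library. They are the integrin alpha chain genes Itga5, Itga8, Itga9 and Itgav, the beta chain genes Itgb5, Itgb6 and Itgb8, and the ligand genes Fn1 (fibronectin) and Tnc (tenascin-C). The members were fixed by name, each matched 1 row, and all 9 passed the filter on low counts. RNA sequencing compared 2 libraries labelled WTfl/flmTmGfl/fl cre+ (WT) with 2 labelled miR205fl/flmTmGfl/fl cre+ (KO). Donor cells of both genotypes carried the RosamTmG reporter, which Cre turns from red to green, and both were infected with a Cre adenovirus and grafted into SCID-Beige mice aged 3 weeks. Outgrowths were taken after 8 weeks, 40 of them were pooled, and green CD24+CD49fhigh basal cells were sorted. SCID-Beige hosts lack normal lymphocytes but keep their own stroma and vessels. The series asks which genes respond to loss of the microRNA miR-205 in basal cells, and its title names YAP and Wnt signaling.

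Integrins are receptors made of 1 alpha and 1 beta chain that tie the cytoskeleton to the matrix outside the cell. The chain pair of Itga5 with Itgb1 is the main fibronectin receptor and reads the tripeptide Arg-Gly-Asp (RGD). Itga8 pairs with Itgb1 and reads RGD in nephronectin and other ligands, Itga9 pairs with Itgb1 and reads tenascin-C without RGD, and Itgav pairs with several beta chains. With Itgb5 it reads vitronectin, and with Itgb6 or Itgb8 it also releases active TGF-beta from its latent complex. Fibronectin and tenascin-C lie in the matrix around mammary ducts and become more abundant in growing or remodelling glands.

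Letters that could pair with miR-205 are shown first because this microRNA is what the groups differ in. The mature miR-205-5p of RefSeq lies at chr1:193507503-193507524 (minus strand, GRCm38.p6), and capitals mark its seed, bases 2 to 8. In the longest annotated 3' UTR of each gene (GENCODE M21, sense strand), matches to the seed were searched as ATGAAGGA (8mer), ATGAAGG (7mer-m8), TGAAGGA (7mer-A1) and TGAAGG (6mer), with each site counted once as its longest form. The lines below give the microRNA and the 4 matches of 7 letters among the 9 genes, 5′ to 3′ as in the transcript, with the match in capitals.
mmu-miR-205-5p: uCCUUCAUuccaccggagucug
Itga5 site 3, 7mer-A1: tccttccccccatgcactgTGAAGGAccct
Itgb6 site 1, 7mer-m8: acaaccagtcattcagggcATGAAGGtgag
Itgb6 site 2, 7mer-A1: tgcagaaaaatctatttccTGAAGGAattt
Itgb8 site 1, 7mer-m8: tacatctactaccttctttATGAAGGtttg

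Itga5, Itgb6 and Itgb8 therefore held a match of 7 letters, 3 of 9 genes, beside 21.9% of 12622 tested coding genes that have a 3' UTR in the annotation. No member held an 8mer, which 4.3% of those genes did. Itga5 had 2 further 6mers in a short UTR of 983 bases, and Itga9 and Itgb5 had 1 6mer each. Fn1, Tnc, Itgav and Itga8 had no match in this window. A match of these letters is a description and not a shown binding site.

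Depth was similar in the 4 libraries, at 47953972 to 60030932 gene counts. KO replicate 2 stood apart, with 12679 genes detected against 18027 to 18897 in the others, and with correlations across genes of log2 counts-per-million (CPM, scaled by TMM) of 0.88 to 0.888 with the other libraries, which among themselves reached 0.965 to 0.976. Every value of the KO group below rests on this library and KO replicate 1 alone, so for each of the 9 genes both are given, in the order of the replicate numbers. Mir205 had 0 counts in all 4 libraries, so the targeted gene could not check the labels. The basal markers Acta2 (mean 2699 CPM) and Itga6 (2342 CPM), which encodes the sorted antigen CD49f, were abundant in every library. In bulk RNA, fewer cells of a type and less RNA per cell cannot be told apart.

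None of the 9 genes passed the test between KO and WT, and the 2 ligands were the closest to a difference. Fn1 was higher and Tnc lower in both KO libraries than in both WT libraries, with KO means at 1.55 and 0.71 times the WT means. Each of the 7 integrin chain genes had overlapping groups. With edgeR's quasi-likelihood test, adjusted p-values of the members were 0.9989 to 0.9997. Of all 15364 genes tested, 0% passed a Benjamini-Hochberg adjusted p of 0.05, and 0.957% had an unadjusted p under 0.05, which 0 of the 9 members had with TMM scaling and all libraries. DESeq2 called 4 genes and limma voom 0, none of them a member. Both KO libraries lay above both WT libraries in 13.2% of all genes and below them in 19.2%, against 1 of 9 members each way, so these counts are no result about the members. Fold changes were positive in 7 of 9 members, with a median log2 fold change of 0.32 (6 of 9 and medians of 0.19 and 0.18 under upper quartile and total count scaling). That median was -0.14 over all tested genes and 0.08 over the 7346 tested genes at a mean of 10 CPM or more.

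**Figure D1:**
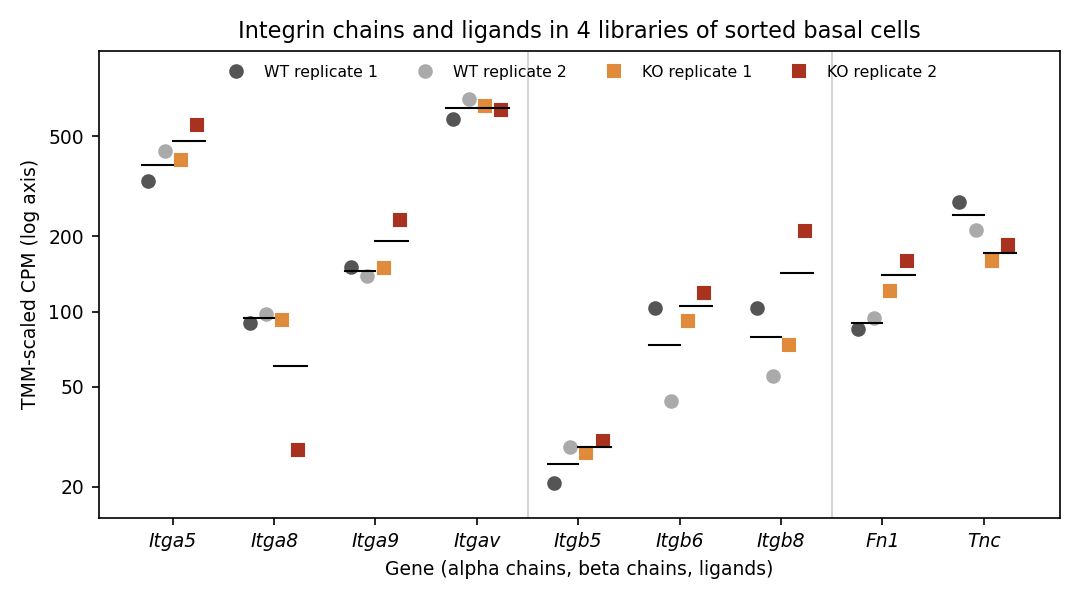
TMM-scaled CPM (log axis) of the 9 genes in each of the 4 libraries, with circles for WT, squares for KO and bars for group means (n = 2). The KO squares lie above both WT circles in Fn1 and below them in Tnc, and the groups overlap in each of the 7 chain genes.

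Levels between genes were compared per kilobase of annotated exon. Itga5 had the highest level, at 87.6 CPM per kb over the 4 libraries, above 97.3% of tested genes, and Itgav followed at 60.5 CPM per kb. Each of Itga5's libraries lay above each of Itgav's, and each of Itgav's above each of Tnc's. Tnc (26.7) and Itga9 (21.8 CPM per kb) overlapped, with Tnc the higher in 3 of 4 libraries. Itga9 lay above Itgb6 (12.5 CPM per kb) without overlap. Below it, neighbours in the order overlapped: Itgb6, Itga8 at 10.5, Itgb8, Fn1 at 9.81 and Itgb5 at 7.53 CPM per kb. Per kb, fibronectin RNA was thus among the lowest of the 9, while the RNA of its receptor chain Itga5 was the highest. This order rests on the exon lengths used. In mean CPM not divided by length, Itgav (649.4) lay above Itga5 (432.3). Fn1 (114.7 CPM) then lay above Itgb8 (110.7), Itgb6 (89.1), Itga8 (77.1) and Itgb5 (26.8).

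Among the alpha chains, Itga5 (chromosome 15, ENSMUSG00000000555), the fibronectin receptor chain, stood at 331.5 and 436.9 CPM in WT replicates 1 and 2 and at 402.6 and 558.2 CPM in KO replicates 1 and 2. KO replicate 1 lay between the WT libraries and only KO replicate 2 lay above them. The log2 fold change was 0.32 ± 0.26 (SE), with a 95% interval of -0.35 to 1.0.

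Itgav (chromosome 2, ENSMUSG00000027087), the shared partner of the 3 beta chains, had the fold change nearest 0 of the 9. It had 589.1 and 708.1 CPM across WT, against 662.3 and 638.3 CPM for KO, with both KO libraries inside the WT range. Group means were 648.6 ± 84.2 CPM (SD, n = 2) for WT, against 650.3 ± 16.96 CPM for KO. Its log2 fold change of 0.00 had a 95% interval of -0.49 to 0.50, and its sign turned under upper quartile and total count scaling.

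Itga9 (chromosome 9, ENSMUSG00000039115), the tenascin-C receptor chain, had 150.4 and 139 CPM across WT, 149 CPM for KO replicate 1 and 233 CPM for KO replicate 2. The first 3 libraries stood close together and the last stood above them. Its log2 fold change was 0.40 ± 0.29 (SE), and 0.045 without KO replicate 2.

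Itga8 (chromosome 2, ENSMUSG00000026768), a chain of the nephronectin receptor found in contractile and mesenchymal cells, had 90.4 and 97.4 CPM in WT and 92.8 CPM in KO replicate 1. KO replicate 2 alone was low, at 28.0 CPM from 1167 counts. The 2 KO libraries differed by 3.32 times and the 2 WT libraries by 1.08 times. The log2 fold change of -0.64 had a 95% interval of -2.17 to 0.90, and without KO replicate 2 it was -0.01.

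Among the beta chains, Itgb6 (chromosome 2, ENSMUSG00000026971), an epithelial chain that with Itgav activates latent TGF-beta, had 102.9 CPM in WT replicate 1 and 43.9 CPM in WT replicate 2. KO had 91.4 and 118.3 CPM, so WT replicate 2 was the low library and the groups overlapped. The gap between the WT libraries was wider than in 98.1% of tested genes at 10 CPM or more. The log2 fold change was 0.51 ± 0.47 (SE) with all libraries and 0.03 without WT replicate 2.

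Itgb8 (chromosome 12, ENSMUSG00000025321), the other TGF-beta activating chain, had 103.1 and 55.4 CPM across WT, 73.7 CPM for KO replicate 1 and 210.4 CPM for KO replicate 2. KO replicate 1 lay between the WT libraries and KO replicate 2 stood at 2.85 times KO replicate 1. Its log2 fold change of 0.84 ± 0.60 (SE) was the widest of the 9 and turned to -0.10 without KO replicate 2. The gap between the WT libraries, 1.86 times, was also wide, more so than in 94.3% of tested genes at 10 CPM or more.

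Itgb5 (chromosome 16, ENSMUSG00000022817), a chain of the vitronectin receptor, was the scarcest, at 20.6 and 28.8 CPM across WT, against 27.3 and 30.3 CPM for KO. KO replicate 1 lay inside the WT range, and the log2 fold change was 0.22 ± 0.46 (SE). Without WT replicate 1 it was -0.001.

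Of the ligands, Fn1 (chromosome 1, ENSMUSG00000026193) had 85.1 and 94.7 CPM across WT, against 120.3 and 158.6 CPM for KO. Both KO libraries were the higher ones, and the groups did not overlap. Means were 89.9 ± 6.74 CPM (SD, n = 2) for WT, against 139.5 ± 27.0 CPM for KO. The log2 fold change was 0.63 ± 0.27 (SE), with a 95% interval of -0.06 to 1.33, an unadjusted edgeR p of 0.06549 and an adjusted p of 0.9989. It stayed positive with each library left out, from 0.42 without KO replicate 2 to 0.81 without KO replicate 1.

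Tnc (chromosome 4, ENSMUSG00000028364), a matrix protein that loosens adhesion to fibronectin, had 274.8 and 211.4 CPM across WT, against 158.6 and 184.6 CPM for KO. Both KO libraries were the lower ones. Means were 243.1 ± 44.8 CPM (SD, n = 2) for WT, against 171.6 ± 18.4 CPM for KO. The log2 fold change was -0.50 ± 0.24 (SE), with a 95% interval of -1.12 to 0.12, an unadjusted edgeR p of 0.09107 and an adjusted p of 0.9989. It stayed negative with each library left out, from -0.68 without WT replicate 2 to -0.30 without WT replicate 1. Its unadjusted edgeR p was 0.0367 with upper quartile scaling, 0.0374 with total count scaling and 0.0213 without KO replicate 2, and the adjusted p was 0.998 or more in each. By TMM-scaled CPM, Tnc was lower in KO replicate 1 than in KO replicate 2. That order depends on the scaling: the TMM factor was 0.870 in KO replicate 2 and 1.03 to 1.06 in the other libraries. By total counts KO replicate 2 was slightly the lower one (7703 of 47953972 gene counts, against 9967 of 60030932 in KO replicate 1).

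**Figure D2:**
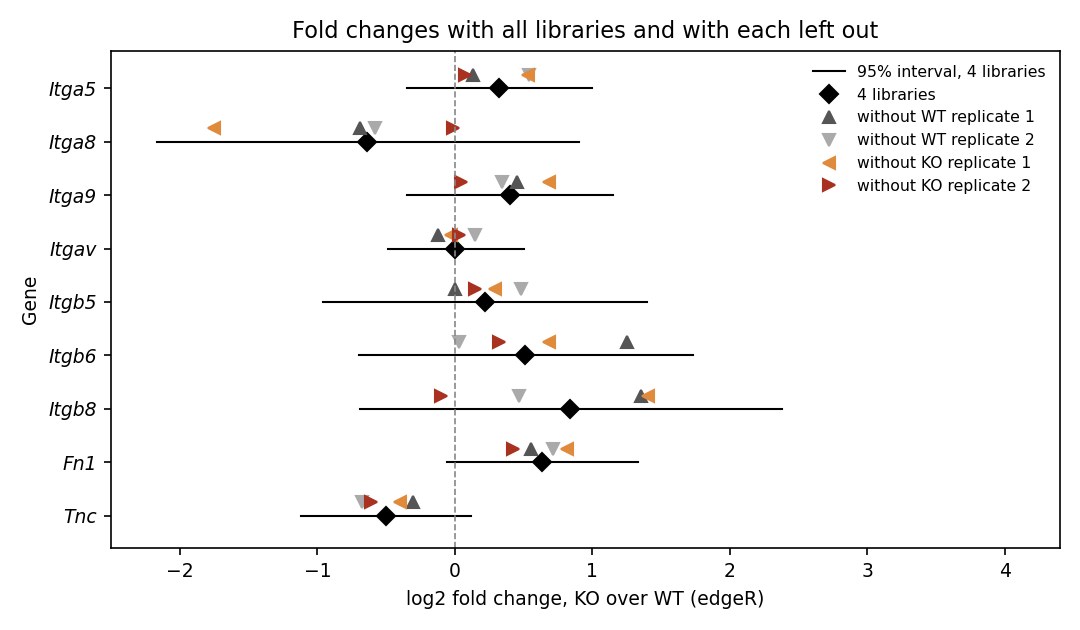
edgeR log2 fold change of KO over WT for the 9 genes (diamonds) with 95% intervals (lines), and the values with each library left out (triangles). All 9 intervals cross 0, the triangles of Fn1 and Tnc stay on 1 side, and those of Itga8 and Itgb8 spread widest between the settings without KO replicate 1 and without KO replicate 2.

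The 2 KO libraries carried these differences unequally. Relative to the WT mean of log2 CPM, the median of the 9 genes was 0.04 in KO replicate 1 and 0.55 in KO replicate 2, beside 0.02 and 0.14 for tested genes at 10 CPM or more. Fn1 stood at 0.42 and 0.82, Itgb6 at 0.44 and 0.81, and Tnc at -0.60 and -0.38 in KO replicates 1 and 2. With KO replicate 1 left out, the lone KO library was set against both WT libraries on the assumption that it varies as they do. In that fit edgeR called 4 of the 9 genes, beside 34.9% of all tested genes. Itga9 (adjusted p = 0.02514), Itgb8 (0.01874) and Fn1 (0.02217) were higher, and Itga8 (0.004386) was lower. Over the other settings the adjusted p of each of these 4 genes reached 1. The low detection in KO replicate 2 moves with these 4 values, and its part in them was not tested. The 3 genes with a seed match of 7 letters, Itga5, Itgb6 and Itgb8, had log2 fold changes of 0.32, 0.51 and 0.84 with all libraries and of 0.07, 0.32 and -0.10 without KO replicate 2. Fn1, Tnc, Itgav and Itga8, which have no match in the window searched, had 0.63, -0.50, 0.00 and -0.64 with all libraries. Without KO replicate 2 these were 0.42, -0.61, 0.03 and -0.01. Itga9 and Itgb5, with shorter matches only, had 0.40 and 0.22 with all libraries and 0.05 and 0.15 without KO replicate 2. A link between seed matches and fold changes was not tested.

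**Figure D3:**
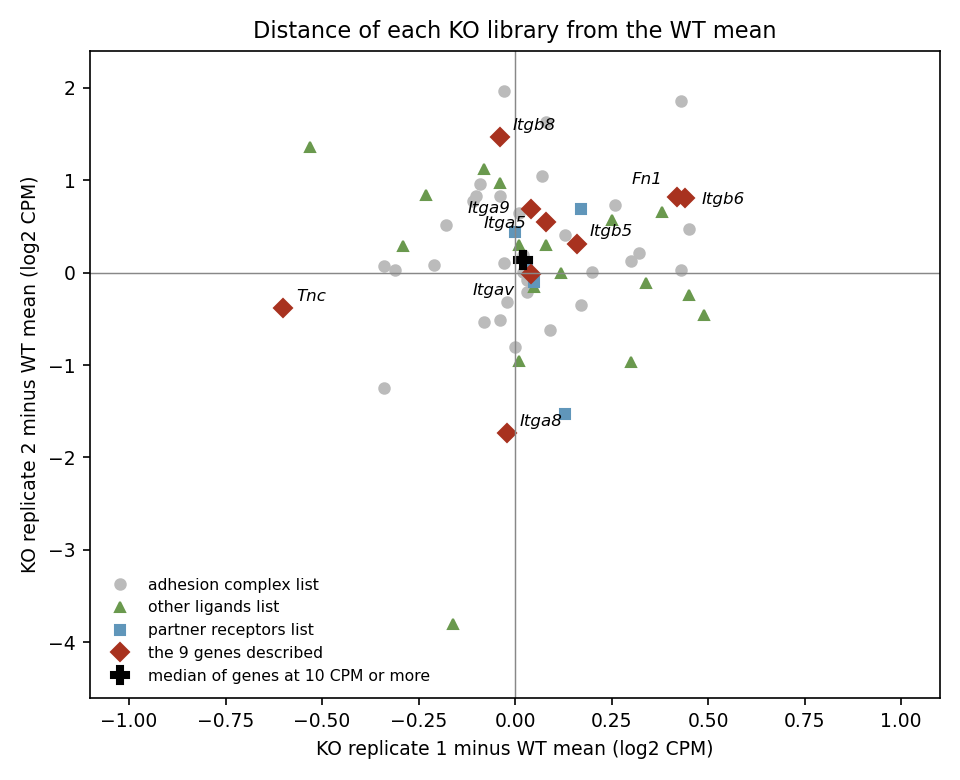
Log2 CPM of each KO library minus the WT mean, KO replicate 1 on the horizontal axis and KO replicate 2 on the vertical axis, for the 9 genes and for listed genes at a mean of 10 CPM or more. The vertical axis spans more than the horizontal one: Itgb8 and Itga8 stand at 1.47 and -1.73 in KO replicate 2 and near 0 in KO replicate 1. Fn1, Itgb6 and Tnc leave 0 in the same direction in both. Itga5, Itga9 and Itgb5 do so with KO replicate 1 nearer 0, at 0.08, 0.04 and 0.16. The 2 WT libraries behind the mean of Itgb6 differ by 1.22 on the log2 scale.

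Ratios within a library do not depend on its scaling. Tnc to Fn1 gave log2 ratios of CPM per kb of 2.28 and 1.75 in WT and 0.99 and 0.81 in KO. The KO ratios were the lower ones in both libraries, by 1.12 on the log2 scale on average (group means 2.01 ± 0.38 and 0.90 ± 0.13, SD, n = 2). Tnc to its receptor chain Itga9 gave 0.85 and 0.59 in WT and 0.07 and -0.35 in KO. Fn1 to its receptor chain Itga5 gave -3.21 and -3.45 in WT and -2.99 and -3.06 in KO. In all 3 ratios the groups did not overlap, and an exact permutation test (two-sided, 2 against 2 libraries) gave p = 0.33, the smallest this design allows. Each ratio holds Fn1 or Tnc, the members whose own groups did not overlap, and adds no separate evidence.

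The make-up of the alpha chains was alike in the first 3 libraries. Itga5 made 43.7% and 47.7% of the 4 alpha chains' summed CPM per kb across WT, 46.6% for KO replicate 1 and 54.8% for KO replicate 2. Itgav made 35.6% and 35.5% in WT and 35.2% and 28.8% in KO, and Itga8 made 7.12% or more in the other libraries and 1.84% in KO replicate 2. Among the beta chains, WT differed within itself: Itgb5 made 19.6% and 42.0%, and Itgb6 48.9% and 32.03%. KO had 28.3% and 19.3% for Itgb5 and 47.2% and 37.6% for Itgb6, and Itgb8 made 24.5% in KO replicate 1 and 43.1% in KO replicate 2. Exact permutation p-values for the 7 shares were 0.33 for Itgav and 0.667 to 1 for the others. With 10 shares and ratios computed, no adjusted p could pass a threshold in this design.

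**Figure D4:**
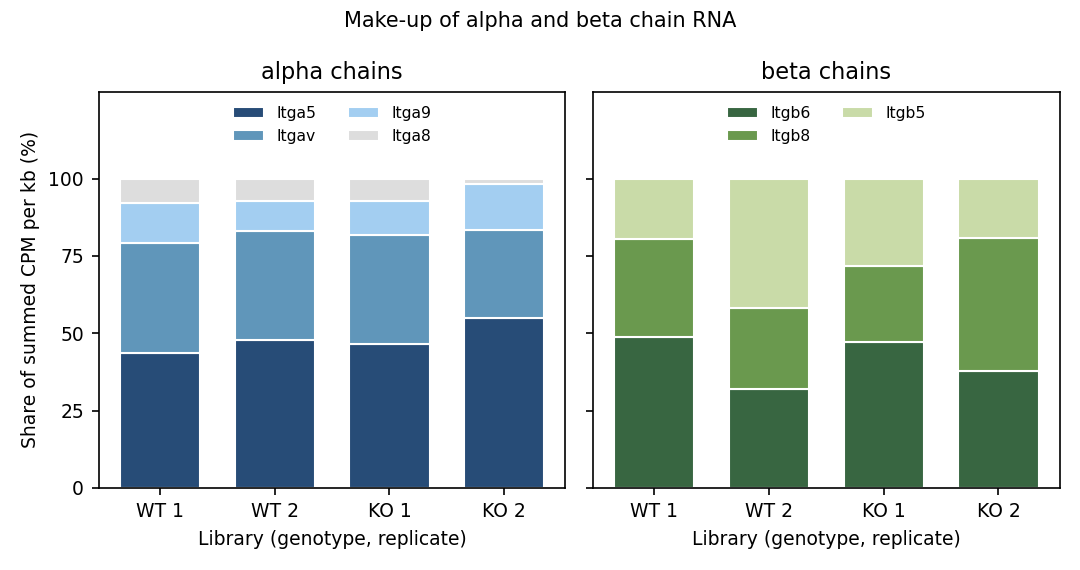
Share of each chain (%) in the summed CPM per kb of the 4 alpha chains (left) and of the 3 beta chains (right) in each library. Itga5 and Itgav together fill most of every left bar, and the right bars differ as much between the 2 WT libraries as between genotypes.

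Partner chains and related receptors had no shared direction between genotypes. Of 9 listed genes, 7 had a row and were tested, 0 passed, 3 fold changes were positive and 4 negative, and the median log2 fold change was -0.02. Itgb1, the beta chain that Itga5, Itga8 and Itga9 need, had 1324 and 1373 CPM across WT, against 1347 and 1824 CPM for KO, with a mean of 359.5 CPM per kb that exceeded each of the 9 genes. The syndecans Sdc1 and Sdc4, proteoglycans that act with fibronectin receptors, had log2 fold changes of 0.07 ± 0.19 and -0.02 ± 0.17 (SE). Cd44, the hyaluronan receptor, had 2457 and 2472 CPM across WT, against 2770 and 3981 CPM for KO (log2 fold change 0.45 ± 0.23). Plaur, the urokinase receptor, had 174.5 and 194.3 CPM across WT, 201 CPM for KO replicate 1 and 63.4 CPM for KO replicate 2, where it was low alone, like Itga8. Itgb3, the other well-known partner of Itgav, was not analysed here.

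Among other ligands of these integrins, the direction of the fold changes differed with level. Of 30 listed genes 29 had a row, 28 were tested and 0 passed, with 16 positive and 12 negative fold changes and a median of 0.06. Most of the negative ones averaged under 10 CPM. At 10 CPM or more, only Mfge8, Postn, Vcam1 and Adam15 had negative fold changes. Of all 7346 tested genes at that level, 4162 had positive and 3184 negative fold changes. Both KO libraries lay above WT in 2 of 28 and below in 5 of 28, beside 13.2% and 19.2% of all tested genes, and all 5 of the latter averaged under 10 CPM. The 2 above were Tgfb3, a latent growth factor freed through RGD, at 27.8 and 41.2 CPM across WT, against 44.1 and 53.8 CPM for KO, and Ccn1, a matricellular ligand of Itgav, at 387.2 and 400.1 CPM across WT, against 468.9 and 583.2 CPM for KO. The most abundant ligands per kb, Thbs1 (thrombospondin 1, 847.1 CPM per kb) and Postn (periostin, 229 CPM per kb), had log2 fold changes of 0.06 ± 0.16 and -0.05 ± 0.18 (SE). Both far exceeded Fn1 at 9.81 CPM per kb. Ccn2, also matricellular, varied within each genotype, at 571.6 and 388.4 CPM across WT, against 659.9 and 343.2 CPM for KO.

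Among the remaining ligands at 10 CPM or more, KO replicate 2 lay above or below each other library in several. Ltbp1, which ties latent TGF-beta to fibronectin and to fibrillin fibres, had 187.7 and 173.9 CPM across WT, 176.2 CPM for KO replicate 1 and 354.8 CPM for KO replicate 2. Npnt (nephronectin), the ligand of Itga8, had 8.29 and 19.2 CPM across WT, against 8.64 and 33.4 CPM for KO. Adam15, a membrane protease whose human form holds RGD, had 13.0 and 23.5 CPM across WT, 15.6 CPM for KO replicate 1 and 0.79 CPM for KO replicate 2. So KO replicate 2 was the high library in Ltbp1 and Npnt and the low one in Adam15. Eln (elastin) had 28.6 and 24.5 CPM across WT, 25 CPM for KO replicate 1 and 58.0 CPM for KO replicate 2. Vcam1, an adhesion molecule of the immunoglobulin family, had 176 and 203.7 CPM across WT, 233.8 CPM for KO replicate 1 and 96.6 CPM for KO replicate 2. Mfge8, a milk fat globule protein, had 97.9 and 141.6 CPM across WT, 118.9 CPM for KO replicate 1 and 60.2 CPM for KO replicate 2. The log2 fold changes of these last 3 were 0.64, -0.20 and -0.42. In Lama5, Nid1, Fgb, Fbn1, Fgg and Fbln5, KO replicate 2 stood nearer, at -0.24 to 0.84 from the WT mean of log2 CPM, and log2 fold changes were 0.03 to 0.35. It was still the highest library in Lama5, Fbn1, Fgg and Fbln5 and the lowest in Nid1.

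Adhesion complex genes, which link integrin tails to actin and to kinases, were evenly split as a whole but not at each level. Of 45 listed genes 41 had a row, 40 were tested and 0 passed, with 20 positive and 20 negative fold changes and a median of 0.00. Each positive one averaged 10 CPM or more, and those tested under 10 CPM were all negative. Both KO libraries lay above WT in 4 of 40 and below in 0, beside 13.2% and 19.2% of all tested genes. The actin crosslinkers Flna, Actn4 and Actn1 were among those with the highest levels per kb, with log2 fold changes of -0.02 ± 0.17, -0.08 ± 0.25 and 0.02 ± 0.17 (SE). Kank2, an adaptor at the rim of adhesions, had an unadjusted edgeR p of 0.04971, 1 of 40 genes beside the 0.957% of all genes. It had 59.9 and 64.9 CPM across WT, 84.2 CPM for KO replicate 1 and 227.6 CPM for KO replicate 2.

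Cells outside the gate also make several of the 9 genes, fibroblasts most of all in the case of Fn1. The 12 fibroblast markers summed to 457.2 and 672.1 CPM across WT, against 634.5 and 935.1 CPM for KO, so the groups overlapped and KO replicate 2 was highest. Fold changes were positive in 7 of the 12, both KO libraries lay above WT in 4 and below in 2 (13.2% and 19.2% over all tested genes), and 2 had an unadjusted edgeR p under 0.05 (0.957% over all tested genes). Dcn (decorin) had 89.5 and 105.6 CPM across WT, against 153.2 and 221.3 CPM for KO, the same order of libraries as Fn1, and Fbln2 (fibulin 2) had 184.2, 195.4, 228.2 and 263.5 CPM in that order. The defining markers Col1a2 and Col3a1 had means of 27.5 and 20.3 CPM with overlapping groups. Dpt and Mfap5 had 0 counts in KO replicate 2, and Pi16 had 0 in WT replicate 2. The part of fibroblast RNA in the Fn1 difference was not tested.

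Endothelial markers (12 genes, led by Cdh5 and Flt1) summed to 175.3 and 320 CPM across WT, against 246.4 and 154.8 CPM for KO. The sum was lowest in KO replicate 2 and nearly as low in WT replicate 1. Cldn5 had 0 counts in KO replicate 2. Pericyte markers (7 genes, led by Rgs5 and Notch3) summed to 81.0 and 196.4 CPM across WT, against 114.4 and 122.2 CPM for KO, and Pdgfrb, Cspg4 and Kcnj8 had 0 counts in KO replicate 2. Immune markers (11 genes, led by Cd74 and Cd14) summed to 81.4 and 184.2 CPM across WT, against 113.7 and 326 CPM for KO. Cd74 alone made 289.2 CPM of the sum in KO replicate 2. The median of the 10 tested immune markers there was -1.04 from the WT mean of log2 CPM. In KO replicate 2, 4 of the 11 had 0 counts, beside 1 in each WT library and 2 in KO replicate 1. Luminal markers (11 genes, led by Epcam and Krt8) summed to 1007 and 1489 CPM across WT, against 1104 and 1683 CPM for KO. Both KO libraries lay below WT in 3 of the 11 and above in 0 (19.2% and 13.2% over all tested genes). Elf5 had 0 counts in KO replicate 2. Basal markers (10 genes) summed to 9974 and 10030 CPM across WT, against 12220 and 11070 CPM for KO, without overlap. Their fold changes were positive in 8 of the 10, and both KO libraries lay above WT in 3 and below in 0. The part of these cells in the values of Itga8 and the other members was not tested.

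Genes most like Fn1 and Tnc were sought over the 4 libraries by the distance between log2 CPM centred on each gene, among 6910 other protein-coding genes at 10 CPM or more. Nearest to Fn1 were Taf13 (distance 0.038) and Nars2 (0.039), and 156 genes lay within 0.25. Nearest to Tnc were Inpp5e (0.112) and the casein gene Csn2 (0.119), with 24 genes within 0.25. With 4 libraries many genes share such a profile.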

How the data were processed

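The authors deposited raw counts of reads for each Ensembl gene in 4 files. Per the submitters' processing notes, TopHat2 (2.02) and HTSeq were used with NCBIM37 (mm9). The annotation release and the strand and overlap settings were not given in the sources used here. Reads of a member and of an antisense or overlapping gene therefore cannot be separated. The 5 summary rows were dropped (reads in no feature made 57.59% to 61.52% of lines counted and ambiguous reads 0.71% to 0.79%). Symbols, union exon lengths and 3' UTRs came from GENCODE M21 (GRCm38), which matched 86.9% of rows by identifier. That build is later, so gene coordinates are not given. Nearly all chromosome 11 genes, Itgb3 and Vtn among them, were not analysed here.

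The 15364 genes that pass filterByExpr entered edgeR 4.0.16 (R 4.3.3, TMM, quasi-likelihood test, genotype as the only term), with Benjamini-Hochberg adjustment over all of them. The SE is the fold change over the square root of F. Single-library log2 values add 0.5 CPM. A count of 0 allows up to 3 counts, 0.05 to 0.0626 CPM, for counting error only. Nothing states that replicates came from separate pools, so the p-values rest on a spread that may be technical. Alternatives used DESeq2 1.42.0, other scalings and filters, limma 3.58.1 voom, a replicate block, and each library left out. The procedure was run on simulated counts with a smaller spread between libraries than in these data. That run therefore does not give its power or error rate here.

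The members and lists were chosen with earlier results of these data known. Named by rule were the 9 members, partner and ligand genes at 10 CPM or more, the 4 highest adhesion complex genes per kb with any at p under 0.05, the 2 highest markers per list with the sort antigen, and the 2 nearest profiles of Fn1 and Tnc. An exclusion of predicted genes, Rik clones and pseudogenes from those profiles was added after the data were seen. A gene that the rule names is not reported here. Marker genes at 0 counts, Col1a2, Col3a1, Tnr, Src and Tln2 were chosen after their values were seen.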

Additional observations from a re-analysis of the deposited data

How the results depend on the processing

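The 9 genes gave 0 calls with all 4 libraries under each scaling, filter and test. Over all genes, DESeq2 called 4 and the other settings with all libraries 0 (147 at an unadjusted p under 0.05 in edgeR). Leaving out 1 library gave 0 to 5724 genes called and 0 to 4 members, the upper values without KO replicate 1. The replicate numbers pair nothing by the labels, and same-numbered libraries deviated together with a correlation of 0.02 across genes. With the replicate block 0 genes and 0 members were called. Fold changes of the 9 genes kept their sign under every setting except in 3: Itgav gave -0.106 with upper quartile scaling, -0.119 with total counts, -0.048 at a mean of 5 CPM or more and -0.125 to 0.144 with a library left out, Itgb5 -0.001 to 0.482 and Itgb8 -0.101 to 1.406. Shares of KO minus WT, in percentage points, ran from -18.22 to 4.154 for Itgb5, -6.452 to 10.41 for Itgb6, -4.218 to 14.32 for Itgb8 and -0.162 to 3.44 for Itga9 with a library left out. The cause was not tested. The 3 log2 ratios kept their sign with each library left out (Tnc to Fn1 -1.38 to -0.851). At these depths counting error was small beside the spread between libraries, which sets the width of the intervals.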

Other observations

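A few genes of the ligand and adhesion lists were set by KO replicate 2 alone, and were chosen after their values were seen. Tnr, the neural tenascin, had 3 and 11 counts across WT, 7 counts for KO replicate 1 and 868 for KO replicate 2. Src, the adhesion kinase, had 56.1 and 54.8 CPM across WT, 54.3 CPM for KO replicate 1 and 216.6 CPM for KO replicate 2. Tln2, a talin that activates integrins, had 44.5 and 25.9 CPM across WT, 35.9 CPM for KO replicate 1 and 106.5 CPM for KO replicate 2. The first 3 libraries stood close together in Tnr and Src. None passed the edgeR test with all libraries (adjusted p over all genes, 15364 tested).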
